A study of Mus musculus with 8 samples.

Results

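Ms4a1, Cd79b, Lyz2, Itgam, Cd8a, Cd8b1, Ncr1 and Alas2 are genes whose transcripts mark blood cells other than regulatory T cells, and they serve here to describe how pure the sorted cells were. They were taken as the probe sets that carry the single Entrez identifier of one of these 8 genes, which gave 13 probe sets for 8 genes out of 45037 probe sets and 20665 genes. The arrays were Affymetrix Mouse430_2 arrays of mouse regulatory T cells (Treg), CD4+ T cells that depend on the transcription factor Foxp3 and restrain other immune cells. GFP-RFP+ cells, labelled as peripherally induced, and GFP+RFP+ cells, labelled as thymically induced, were sorted from the CD4+CD25+ fraction of spleen and of lymph nodes.

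The 4 groups were therefore GFP-RFP+ spleen, GFP+RFP+ spleen, GFP-RFP+ lymph node and GFP+RFP+ lymph node. All mice were untreated and 14 to 17 weeks old, and organs of 20 mice were pooled. Each group had 2 arrays that the labels call technical replicates, so each group was 1 pool measured in duplicate. The labels name the reporter colours but no strain, allele or promoter, and these were not settled here.

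The 8 genes stand for 5 lineages. In B cells, Ms4a1 encodes the surface protein CD20, and Cd79b encodes a signalling chain of the B cell receptor. In myeloid cells, Lyz2 encodes a lysozyme of macrophages and neutrophils, and Itgam encodes the integrin chain CD11b. Cd8a and Cd8b1 encode the chains of the CD8 coreceptor of cytotoxic T cells. Ncr1 encodes NKp46, an activating receptor of natural killer (NK) cells. Alas2 encodes the erythroid form of the enzyme that starts heme synthesis. The spleen filters blood and holds red pulp rich in macrophages and red cells, which lymph nodes lack.

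The promoters of Alas2 and Lyz2 are shown because these genes showed the largest organ differences of the erythroid and myeloid markers. The RefSeq promoter windows at hand covered Alas2, Lyz2, Itgam, Cd8a and Ncr1 on GRCm38.p6. They ran from 250 bases before the gene start to 50 bases after it. Capitals mark matches to the motifs searched on both strands, which were AGATAA and TGATAA for GATA factors, ATGCAAAT for octamer factors, GAGGAA for ETS factors and AACCACA for RUNX factors.
Alas2, chrX:150547167-150547466, + strand: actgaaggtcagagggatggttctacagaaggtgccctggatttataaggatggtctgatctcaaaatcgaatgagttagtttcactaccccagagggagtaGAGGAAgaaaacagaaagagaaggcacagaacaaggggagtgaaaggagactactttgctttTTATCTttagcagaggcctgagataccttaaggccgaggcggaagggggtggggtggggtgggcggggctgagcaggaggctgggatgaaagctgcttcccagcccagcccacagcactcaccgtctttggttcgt
Lyz2, chr10:117282223-117282522, - strand: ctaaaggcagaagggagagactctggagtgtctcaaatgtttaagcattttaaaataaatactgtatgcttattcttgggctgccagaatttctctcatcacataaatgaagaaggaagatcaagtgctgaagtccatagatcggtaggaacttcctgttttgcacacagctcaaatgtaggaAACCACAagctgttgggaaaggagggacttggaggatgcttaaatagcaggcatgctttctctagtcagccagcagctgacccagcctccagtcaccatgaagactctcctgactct
The Alas2 window held GAGGAA and, on the other strand, AGATAA, which GATA factors of red cell precursors recognise. AGATAA was found in 11.2% of 32851 promoter windows and GAGGAA in 28.3%. The Lyz2 window held AACCACA, found in 5.27% of windows and also in the Ncr1 windows, while GAGGAA was also in the Itgam and Cd8a windows. TGATAA, in 9.05% of windows, and ATGCAAAT, in 1.74%, were in none of the windows of these 5 genes. Ms4a1, Cd79b and Cd8b1 had no window among those at hand and were not searched. These matches describe letters in the windows and no binding.

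Signals are the dChip model-based expression index on a linear scale, and differences are given on the log2 scale. The median signal over probe sets was 24.97 to 27 per array, and 53.3% to 56.2% of probe sets had a present call. The labelled cell type was checked on a list of 14 T cell and Treg genes. Of these genes, 13 had a present call on all 8 arrays, among them Foxp3, Cd4 and Il2ra, and Cd3e had 7. By the test below none of the 14 was called between organs, while 6 were called higher and 2 lower in GFP-RFP+ than in GFP+RFP+ cells. The lower ones were Foxp3, with a log2 difference of -0.57 (limma adjusted p = 3.8e-05), and Il2ra, the receptor chain CD25, with -0.86 (limma adjusted p = 0.000198). Ctla4, an inhibitory receptor of Treg, was higher at 1.45 (limma adjusted p = 4.97e-09). Signals of duplicates correlated at 0.990 to 0.995 over 17476 probe sets present on all arrays, against 0.955 to 0.989 between arrays of different groups, as a description across probe sets.

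Transcripts of every one of the 5 lineages had a present call on at least 1 array. The calls could be counted over the 8 arrays but not tied to a group. Ms4a1, Cd79b, Lyz2 and Cd8b1 were present on all 8 arrays with the probe set of highest mean log2 signal, which stands for the gene throughout. Alas2 and Cd8a were present on 4, Ncr1 on 3 and Itgam on 2. Of all genes, 44.5% were present on all 8 arrays and 79.7% on at least 1. Detection on all arrays for 4 of 8 markers was thus near the share for all genes. In RNA from a pool, fewer cells of a type and less RNA per cell cannot be told apart.

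Differences were tested with limma on the means of the duplicates, with organ and population in 1 model over 4 pools and Benjamini-Hochberg adjustment over 45037 probe sets. The spread rests on 1 residual degree of freedom, shared across probe sets through a trend with intensity. Without that trend no probe set passed in either comparison, with adjusted p of 0.575 for Ms4a1 and Lyz2, 0.598 for Cd79b and 0.509 for Alas2 between organs. At an unadjusted p under 0.05, 3620 probe sets passed between organs and 7282 between populations in that fit. Each organ gave 1 pool per population, so a probe set's own spread is how far both organs, or both populations, gave like differences. That spread had 1 degree of freedom, against 10.81 taken from the other probe sets. The p-values thus rest mostly on other probe sets of like intensity, and little on agreement between a gene's own pools. The spread between mice or sorts was not measured.

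Between organs, 4 of the 8 markers were higher in spleen and none was lower, against 1.66% of all genes called higher and 0.513% called lower. The 4 were Alas2, Ms4a1, Lyz2 and Cd79b, from the erythroid, B cell and myeloid lineages. The 2 CD8 chains, Ncr1 and Itgam did not pass. The median difference of spleen minus lymph node was 0.68 over the 8 markers and 0.01 over all genes. In 3 of the 8 (Alas2, Ms4a1 and Lyz2) every spleen array lay above every lymph node array, as it did for 3.41% of all genes. Counted by probe set, 5 of 13 were called higher in spleen, against 1.21% of all probe sets. The markers were chosen with earlier results of these data known, so the comparison with all genes is a description only.

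**Figure D1:**
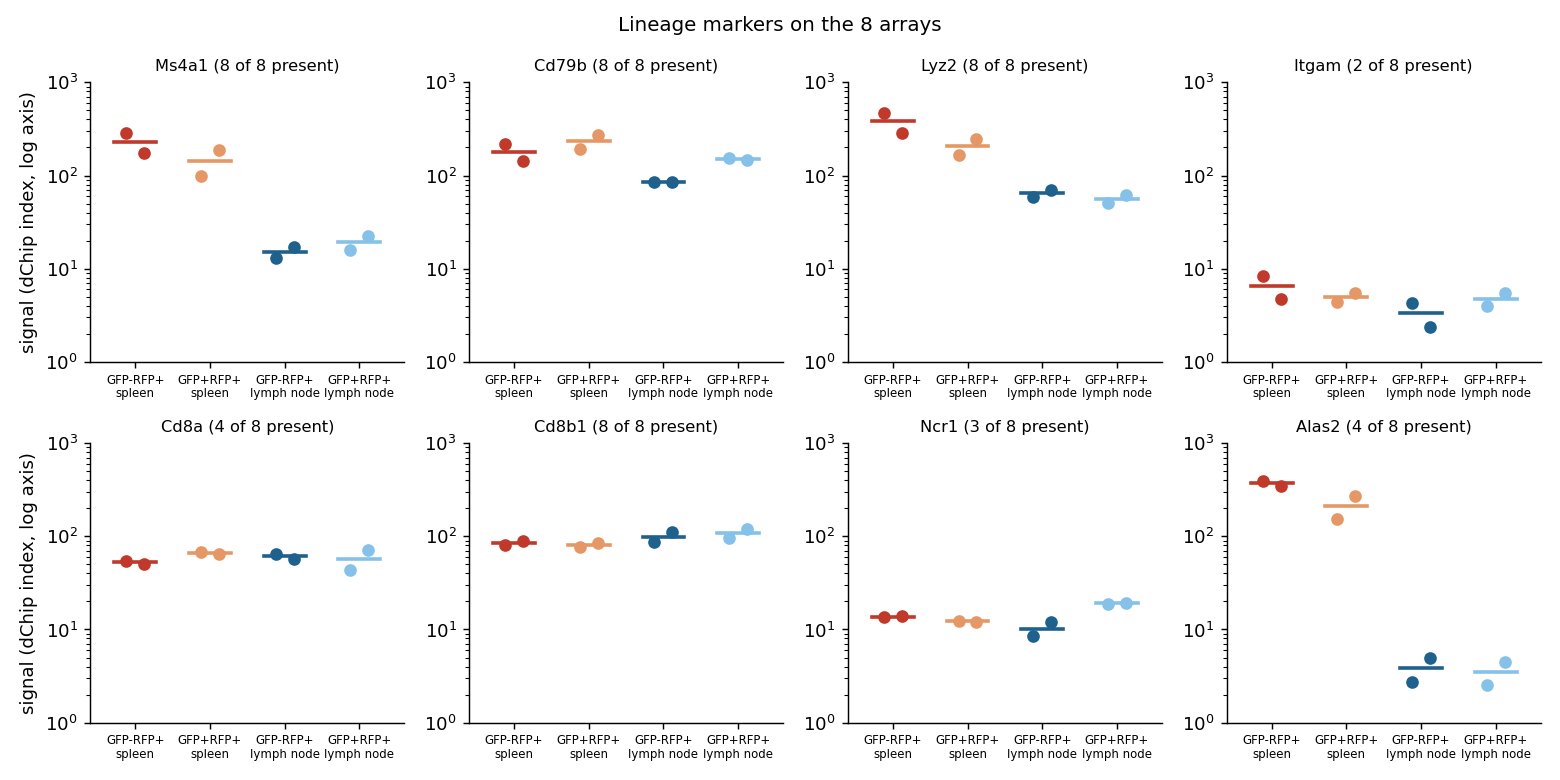
Signal of the 8 markers on a log axis for the 2 arrays of each group (points, replicate 1 left) with their mean (line). The panel heading gives the number of 8 arrays with a present call, which could not be tied to groups. Alas2, Ms4a1 and Lyz2 are higher on all 4 spleen arrays than on all 4 lymph node arrays, and the panels of Cd8a, Cd8b1, Ncr1 and Itgam show no such gap.

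Alas2 had the largest organ difference of the 8 markers. Its signals were 392.12 and 348.5 in GFP-RFP+ spleen, 151.66 and 268.28 in GFP+RFP+ spleen, 2.75 and 4.95 in GFP-RFP+ lymph node, and 2.53 and 4.46 in GFP+RFP+ lymph node. The spleen and lymph node arrays were far apart, and within lymph node the populations overlapped. All 4 lymph node signals lay below the 20th percentile of their arrays (5.61 to 5.7), so the measured fold depends on values near background. The log2 difference of spleen minus lymph node was 6.28 ± 0.22 (SE, 4 pools, limma, adjusted p = 5.22e-09), and 5.6 when signals were floored at that percentile. It was 6.65 in GFP-RFP+ cells and 5.91 in GFP+RFP+ cells. In spleen the GFP-RFP+ pool was 1.83-fold above the GFP+RFP+ pool, a difference that did not pass over both organs (limma adjusted p = 0.174).

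Among the 8 markers Ms4a1 came after Alas2 in the size of the organ difference. Its signals were 283.07 and 173.42 in GFP-RFP+ spleen, 98.71 and 188.93 in GFP+RFP+ spleen, 13.16 and 17.04 in GFP-RFP+ lymph node, and 15.99 and 22.66 in GFP+RFP+ lymph node. The populations overlapped within each organ. Spleen was 10.3-fold above lymph node, a log2 difference of 3.37 ± 0.21 (SE, limma adjusted p = 1.06e-06), with 14.8-fold in GFP-RFP+ cells and 7.17-fold in GFP+RFP+ cells. The other Ms4a1 probe set, present on 5 arrays, was dimmer and gave 3.75 ± 0.26 (SE, limma adjusted p = 3.63e-06). Between populations Ms4a1 did not pass, with a log2 difference of 0.18 for GFP-RFP+ minus GFP+RFP+ (limma adjusted p = 0.677).

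Cd79b, the other B cell marker, followed a different pattern. Its signals were 218.99 and 142.28 in GFP-RFP+ spleen, 192.66 and 274.07 in GFP+RFP+ spleen, 84.44 and 84.64 in GFP-RFP+ lymph node, and 155.13 and 145.41 in GFP+RFP+ lymph node. GFP-RFP+ lymph node was the lowest group, and the GFP-RFP+ spleen arrays overlapped with both GFP+RFP+ groups. Spleen was 1.79-fold above lymph node, with a log2 difference of 0.84 ± 0.11 (SE, limma adjusted p = 0.00114). This call was lost without GFP+RFP+ spleen replicate 2 (limma adjusted p = 0.0896) and with the floor on dim signals (limma adjusted p = 0.0599).

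Cd79b was also called lower in GFP-RFP+ than in GFP+RFP+ cells, as were 6.28% of all genes. It was the only one of the 8 markers called lower with the probe set of highest mean log2 signal, and 3 of the 5 Cd8a probe sets, described below, were called lower too. The log2 difference was -0.60 ± 0.11 (SE, limma adjusted p = 0.00232), with -0.83 within lymph node and -0.38 within spleen, where the arrays overlapped. The call was lost without GFP-RFP+ spleen replicate 2 (limma adjusted p = 0.0531) and without GFP+RFP+ spleen replicate 2 (limma adjusted p = 0.082). Ms4a1 and Cd79b thus ordered the groups differently although both mark B cells. In lymph node Cd79b signals were lower on both GFP-RFP+ arrays than on both GFP+RFP+ arrays, while Ms4a1 signals overlapped.

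Lyz2 stood for macrophages and neutrophils. Its signals were 473.36 and 288.96 in GFP-RFP+ spleen, 165.88 and 248.47 in GFP+RFP+ spleen, 58.91 and 69.83 in GFP-RFP+ lymph node, and 50.59 and 62.37 in GFP+RFP+ lymph node. In spleen both GFP-RFP+ arrays lay above both GFP+RFP+ arrays, and in lymph node the populations overlapped. Spleen was 4.57-fold above lymph node, with a log2 difference of 2.19 ± 0.14 (SE, limma adjusted p = 1.12e-06). Lyz1 and Lyz2 are near-identical copies, so their probe sets may share transcripts.

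Lyz2 was the only marker called higher in GFP-RFP+ than in GFP+RFP+ cells, against 9.46% of all genes. The log2 difference was 0.53 ± 0.14 (SE, limma adjusted p = 0.0197), with 0.87 within spleen and 0.19 within lymph node. With the replicate block on 8 arrays the adjusted p was 0.0538, and with the floor it was 0.102. The call was also lost without GFP-RFP+ spleen replicate 1 (limma adjusted p = 0.15, log2 difference 0.35), GFP+RFP+ spleen replicate 2 (0.0519), GFP-RFP+ lymph node replicate 2 (0.099) or GFP+RFP+ lymph node replicate 1 (0.105). Of the 8 markers 1 was higher and 1 lower, with a median difference of -0.06, against -0.01 over all genes. With the probe set of highest mean linear signal for Cd8a, 1 was higher and 2 lower. Counted by probe set, 1 of 13 was higher and 4 were lower, 3 of them of Cd8a, against 9.72% and 5.02% of all probe sets.

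Itgam was at the edge of detection. Its signals were 8.32 and 4.75 in GFP-RFP+ spleen, 4.37 and 5.47 in GFP+RFP+ spleen, 4.3 and 2.35 in GFP-RFP+ lymph node, and 3.99 and 5.45 in GFP+RFP+ lymph node. Only GFP-RFP+ lymph node lay apart, with both of its arrays below GFP-RFP+ and GFP+RFP+ spleen, and neither comparison passed (limma adjusted p = 0.81 between organs and 0.941 between populations). The 2 myeloid markers thus differed in detection, with Lyz2 present on 8 arrays and Itgam on 2.

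Neither CD8 chain was called between organs. Cd8b1 signals were 80.42 and 89.56 in GFP-RFP+ spleen, 77.29 and 84.69 in GFP+RFP+ spleen, 85.92 and 112.5 in GFP-RFP+ lymph node, and 96.51 and 119.83 in GFP+RFP+ lymph node. The populations overlapped within each organ, and GFP-RFP+ spleen overlapped with GFP-RFP+ lymph node. Both GFP+RFP+ spleen arrays lay below both GFP+RFP+ lymph node arrays, a log2 difference of -0.41. Over all pools the log2 differences were -0.31 between spleen and lymph node (limma adjusted p = 0.311) and -0.03 between GFP-RFP+ and GFP+RFP+ (limma adjusted p = 0.914). Cd8b1 was present on all 8 arrays.

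The 5 probe sets of Cd8a ordered the populations alike in spleen, where both GFP-RFP+ arrays lay below both GFP+RFP+ arrays on each, and disagreed in lymph node. By mean log2 signal 1425335_at stands for the gene, with 54.61 and 50.49 in GFP-RFP+ spleen, 68.15 and 65.12 in GFP+RFP+ spleen, 64.5 and 57.15 in GFP-RFP+ lymph node, and 43.16 and 71.45 in GFP+RFP+ lymph node. It gave no call between populations (log2 difference -0.11, limma adjusted p = 0.739) or organs (0.03, limma adjusted p = 0.982). By mean linear signal the gene would be represented by 1444078_at instead, a choice made after seeing the data.

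Probe set 1444078_at, present on all 8 arrays, had 23.83 and 15.18 in GFP-RFP+ spleen, 111.12 and 114.57 in GFP+RFP+ spleen, 26.34 and 18.49 in GFP-RFP+ lymph node, and 98.99 and 90.19 in GFP+RFP+ lymph node. Every GFP-RFP+ array lay below every GFP+RFP+ array in both organs. The difference was 5.04-fold, or -2.33 ± 0.17 on the log2 scale (SE, limma adjusted p = 1.38e-06), with -2.57 within spleen and -2.1 within lymph node. Between organs it was 0.02 (limma adjusted p = 0.989).

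Probe sets 1451673_at and 1440811_x_at moved the same way. The first, present on all arrays, had 33.6 and 32.84 in GFP-RFP+ spleen, 64.1 and 60.06 in GFP+RFP+ spleen, 30.2 and 28.52 in GFP-RFP+ lymph node, and 56.24 and 54.87 in GFP+RFP+ lymph node (-0.91 ± 0.16 on the log2 scale, SE, limma adjusted p = 0.00188). The second, present on 1 array, had 2.66 to 6.56 on the GFP-RFP+ arrays and 22.36 to 33.88 on the GFP+RFP+ arrays (limma adjusted p = 0.000213). The groups did not overlap on any of these 3 probe sets, as for 7.42% of all probe sets, and 5.02% of all probe sets were called lower in GFP-RFP+ cells. Probe set 1440164_x_at had 23.94 and 17.84 in GFP-RFP+ spleen, 27.46 and 35.38 in GFP+RFP+ spleen, 21.16 and 25.82 in GFP-RFP+ lymph node, and 25.13 and 21.34 in GFP+RFP+ lymph node. It did not pass (limma adjusted p = 0.521), with -0.59 within spleen and 0.01 within lymph node. Of the Cd8a probe sets, 3 of 5 were lower in GFP-RFP+ cells and 2 showed no call, while none of the 5 was called between organs. Which transcript each probe set reads was not settled here.

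**Figure D2:**
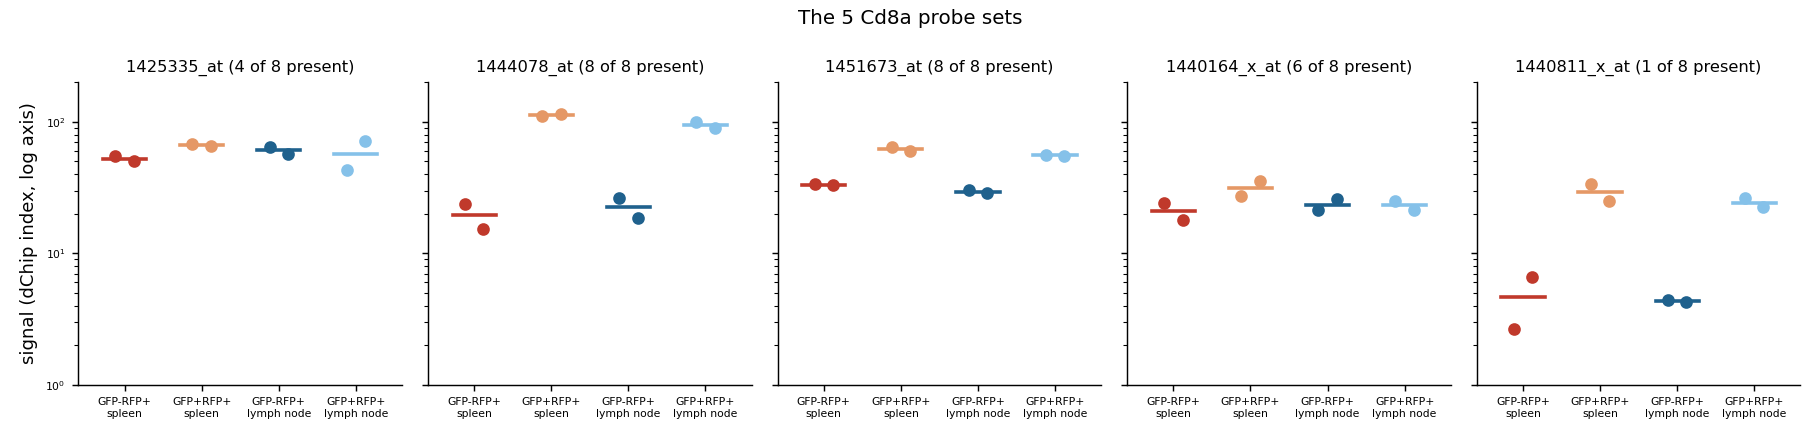
Signal of the 5 Cd8a probe sets on a log axis for the 2 arrays of each group (points, replicate 1 left) with their mean (line). On 1444078_at, 1451673_at and 1440811_x_at all GFP-RFP+ arrays lie below all GFP+RFP+ arrays, whereas on 1425335_at and 1440164_x_at this holds in spleen and the populations overlap in lymph node.

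Ncr1 was dim. Its signals were 13.45 and 14.04 in GFP-RFP+ spleen, 12.43 and 12.08 in GFP+RFP+ spleen, 8.45 and 11.97 in GFP-RFP+ lymph node, and 18.94 and 19.11 in GFP+RFP+ lymph node. GFP+RFP+ lymph node was the highest group and the others lay close together. Neither comparison passed (limma adjusted p = 0.968 between organs and 0.574 between populations).

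Of the 4 markers called between organs, Ms4a1, Lyz2 and Alas2 varied together over the 8 arrays also with organ means removed, and Cd79b did so less. The arrays fall into separate organ groups, so correlations over all 8 mostly describe the gap between organs, and the 8 arrays are duplicates of 4 pools. Pearson's r of log2 signals over the 8 arrays, given as a description, was 0.98 between Ms4a1 and Lyz2, 0.99 between Ms4a1 and Alas2, and 0.97 between Lyz2 and Alas2. After the mean of each organ was subtracted it was 0.86, 0.83 and 0.85 for these pairs. On the spleen arrays alone it was 0.96, 0.92 and 0.92. On the lymph node arrays alone, where Alas2 lay near background, it was 0.29, 0.67 and 0.90. Cd79b correlated with Ms4a1 at 0.78 over all arrays and 0.35 with organ means removed. With organ means removed, Cd79b had -0.15 with Alas2 and -0.11 with Lyz2. Among the other pairs Cd8b1 with Alas2 had 0.68 with organ means removed, but -0.655 over all arrays. With organ means removed, Cd79b with Ncr1 had 0.62 and Ms4a1 with Itgam had 0.60.

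Among the spleen pools, Ms4a1, Lyz2 and Cd79b differed between the duplicates of both, and Alas2 mainly between those of GFP+RFP+ spleen. GFP-RFP+ spleen replicate 1 exceeded replicate 2 for Ms4a1 by 1.63-fold, for Lyz2 by 1.64-fold, for Cd79b by 1.54-fold and for Alas2 by 1.13-fold. GFP+RFP+ spleen replicate 1 lay below replicate 2 for the same genes, with replicate 2 higher by 1.91-fold for Ms4a1, 1.5-fold for Lyz2, 1.42-fold for Cd79b and 1.77-fold for Alas2. Over 17476 probe sets present on all arrays the SD of the log2 ratio of duplicates was 0.259 in GFP-RFP+ spleen and 0.195 in GFP+RFP+ spleen. Of these probe sets, 3.2% were as far apart as Ms4a1 in GFP-RFP+ spleen and 0.343% in GFP+RFP+ spleen. For Alas2 the shares were 67.4% in GFP-RFP+ spleen and 0.572% in GFP+RFP+ spleen. In lymph node, at signals near background, Alas2 replicate 2 was higher by 1.8-fold in GFP-RFP+ and 1.76-fold in GFP+RFP+ cells. Of the probe sets present on all arrays, 0.423% were as far apart in each. Alas2, present on 4 arrays, is not in that set, and its share among probe sets as dim was not computed. Itgam, also dim, differed by 1.75-fold in GFP-RFP+ spleen and 1.83-fold in GFP-RFP+ lymph node.

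The B cell, myeloid and erythroid lists showed ratios of the same sign without the 8 markers. Among the other listed genes present on 4 or more arrays, the median log2 ratio of replicate 1 over replicate 2 in GFP-RFP+ spleen was 0.39 for 6 B cell genes, 0.53 for 15 myeloid genes and 0.49 for 8 erythroid genes, beside 0.10 for 14 T cell and Treg genes and 0.09 for all probe sets. In GFP+RFP+ spleen it was -0.17, -0.36 and -0.57 for the same lists, beside 0.03 for the T cell and Treg genes and -0.02 for all probe sets. The plasma cell, plasmacytoid dendritic cell and NK cell lists had 0.12, 0.49 and 0.13 in GFP-RFP+ spleen. In GFP+RFP+ spleen they had -0.72, -0.66 and -0.22. These values rest on only 2, 2 and 6 genes. The CD8 T cell and platelet values, from 3 genes and 1 gene, were negative in both. Of 17476 probe sets present on all arrays, 60 differed this way in both pools by a log2 ratio of 0.5. Of the 60, 28 were higher in spleen than in lymph node and 13 were called so, against 272 called of the 17476. Ms4a1, Lyz2 and Cd79b are among the 60 and among the 13, so these counts are no separate check of the markers. The labels call these arrays technical replicates, and what separates them was not tested. The organ calls of Ms4a1, Lyz2 and Alas2 held without each array in turn.

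**Figure D3:**
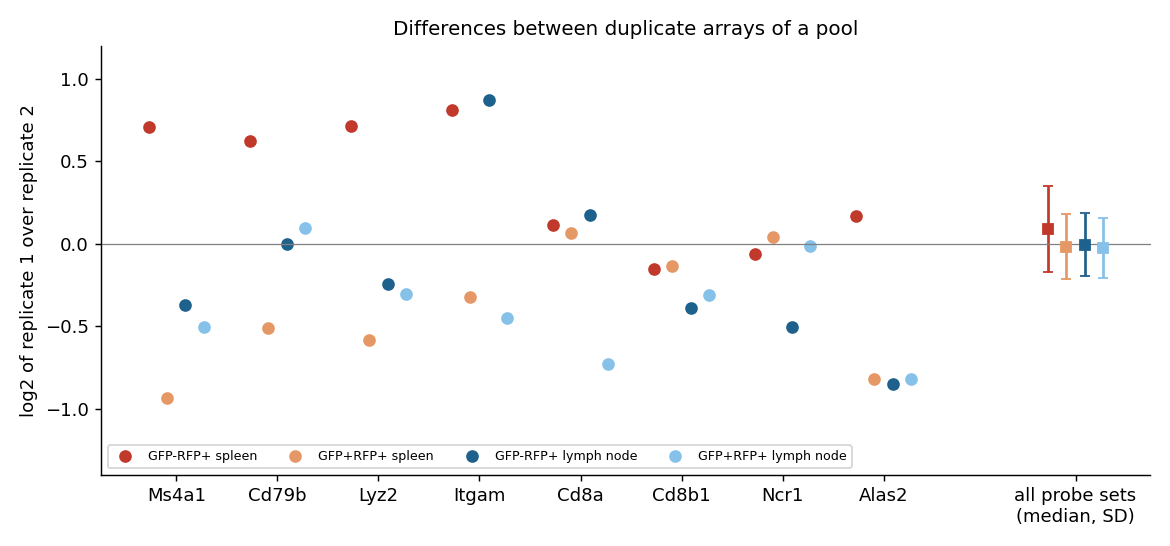
Log2 ratio of replicate 1 over replicate 2 for each of the 8 markers in each pool (points), with the median and SD over 17476 probe sets present on all arrays at the right. Ms4a1, Cd79b and Lyz2 lie above 0.6 in GFP-RFP+ spleen and below -0.5 in GFP+RFP+ spleen.

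The genes whose pattern over the 8 arrays was most like each marker were found by Pearson's r of log2 signals, among 10891 probe sets of 1 identifier with a present call and a log2 range of at least 1. For Ms4a1 they were Ly86, Plac8 and H2-Ab1, with r of 0.994 to 0.996. For Alas2 they were H2-Eb1, Rabggta and H2-Aa, of which H2-Eb1 and H2-Aa, like H2-Ab1, encode class II antigen presentation molecules. For Lyz2 they were Lyz1, the immunoglobulin heavy chain gene Ighm, and Naaa. For Cd79b they were H2-Ob, Zfp93 and C78444. The lists of Cd8a, Cd8b1, Ncr1 and Itgam were led by D19Ertd652e, Shh, Ift172 and Scai at 0.94 to 0.96, genes that are not markers of those lineages. With Spearman's rank correlation 3 of the 24 named genes were kept.

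Marker lists of the same lineages also held many genes higher in spleen. Without the 8 markers, 13 of 16 myeloid genes, 7 of 12 erythroid genes and 6 of 12 B cell genes were called higher in spleen and none lower, against 1.66% and 0.513% of all genes. The called myeloid genes include Lyz1, whose probe set may share transcripts with Lyz2. The lists were chosen with earlier results of these data known. S100a9, a calcium-binding protein of neutrophils, averaged 331 ± 116 in GFP-RFP+ spleen and 248 ± 61 in GFP+RFP+ spleen, against 4.64 ± 1.52 in GFP-RFP+ lymph node and 3.995 ± 3.81 in GFP+RFP+ lymph node (SD of duplicates). Csf1r, a macrophage growth factor receptor, had a log2 difference of 5.02 (limma adjusted p = 1.76e-10). Slc4a1, the anion exchanger of red cells, had 5.19 (limma adjusted p = 2.66e-09), and Cr2, the complement receptor CD21 of B cells, had 3.95 (limma adjusted p = 7.2e-06). Lymph node signals lay below the 20th percentile of their array on 2 of 4 arrays for S100a9, 3 for Cr2 and 1 for Slc4a1. With signals floored there, the log2 differences were 5.57 for S100a9, 3.46 for Cr2 and 5.09 for Slc4a1.

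Jchain, the joining chain of secreted antibodies, had the largest difference of the plasma cell list at 7.05 (limma adjusted p = 2.33e-10), while Sdc1 and Tnfrsf17 of that list had no present call on any array. The summed signal of the listed genes with the markers included was 3514 to 6631 in spleen and 1235 to 1415 in lymph node for myeloid genes. For erythroid genes it was 919 to 2232 in spleen and 388 to 416 in lymph node, and for B cell genes 4213 to 6792 in spleen and 2638 to 2937 in lymph node. Most of the B cell sum came from Ighm, and without it the sum was 809 to 1459 in spleen and 463 to 531 in lymph node. For T cell and Treg genes it was 32841 to 40143 in spleen and 31272 to 38892 in lymph node.

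Not every list did so. None of the 5 platelet genes, the 9 stromal and endothelial genes or the 4 CD8 T cell genes other than Cd8a and Cd8b1 was called between organs. Of 4 plasmacytoid dendritic cell genes 1 was called, Spib, higher in spleen at 2.97 (limma adjusted p = 9.31e-05). Of the 10 NK cell genes other than Ncr1, Fcer1g, an adaptor that myeloid cells also use, was higher in spleen at 3.96 (limma adjusted p = 6.33e-08). Gzmb, a cytotoxic protease, was lower in spleen at -1.14 (limma adjusted p = 1.1e-05) and higher in GFP-RFP+ cells at 2.45 (limma adjusted p = 4.6e-09). Klrb1c and Klre1, receptors of NK cells, had no present call on any array, nor had the B cell genes Pax5 and Vpreb3.

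**Figure D4:**
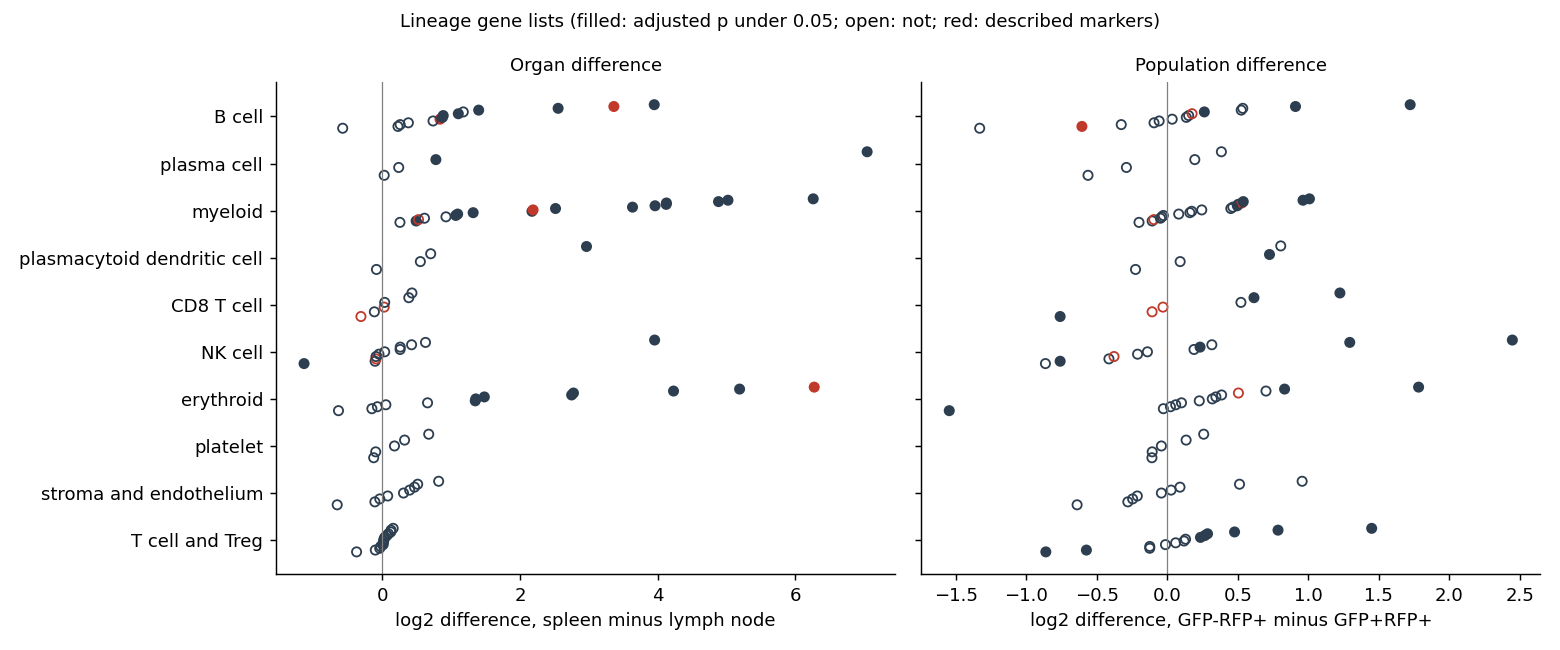
Log2 difference of each listed gene, spleen minus lymph node at the left and GFP-RFP+ minus GFP+RFP+ at the right. Filled points passed an adjusted p of 0.05 and red points are among the 8 markers. Erythroid, myeloid and B cell genes extend to the right in the organ panel, up to 6.28, 6.26 and 3.95. The largest values of the plasma cell, NK cell and plasmacytoid dendritic cell lists are 7.05, 3.96 and 2.97. The T cell and Treg genes lie between -0.37 and 0.16.

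Between populations the lists showed calls in both directions. In the B cell list 3 of 14 genes were higher in GFP-RFP+ cells and 1, Cd79b, was lower. Pou2af1 was higher at 1.72 (limma adjusted p = 3.03e-05) and Cd22 at 0.91 (limma adjusted p = 0.000111). Ighm was higher at 0.26 (limma adjusted p = 0.0185). In the myeloid list 5 of 18 genes were higher in GFP-RFP+ cells and none lower, with Cybb, a subunit of the phagocyte oxidase, at 1.01 (limma adjusted p = 6.43e-06). The 5 include both Lyz1 and Lyz2, whose probe sets may share transcripts. In the erythroid list 2 of 13 were higher and 1 lower. The lower one was Gata1, a transcription factor of red cell precursors, which had 53.7 in GFP-RFP+ spleen, 150 in GFP+RFP+ spleen, 57.2 in GFP-RFP+ lymph node and 173 in GFP+RFP+ lymph node as pool means (log2 difference -1.55, limma adjusted p = 1.03e-06). Gata1 thus did not follow Alas2 over organs (-0.15, limma adjusted p = 0.72). Of all genes 9.46% were called higher and 6.28% lower in GFP-RFP+ cells, and with quantile normalization the share of higher calls among all called probe sets was 47.1%, against 65.9% with the signals as deposited.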

How the data were processed

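The authors' deposited table holds dChip model-based expression signals (intensity, linear scale) of the Mouse430_2 array and a detection call per array, per the file headers, which name a baseline array, an outlier check and no log transformation. RMA is the method that the submitters' processing notes give. The deposited value table, whose columns are named by sample, holds the same 8 intensity values for all 45101 probe sets, so its values are dChip signals too. It was planned for log2 values, so log2 of the signals was taken here, and no signal was at or below 0. The 8 signal and 8 call columns of the dChip table match no label, so calls were only counted.

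Duplicates were averaged, and limma 3.58.1 (R 4.3.3) was fitted with organ and population and an intensity trend, leaving out 64 control probe sets. A call is an adjusted p under 0.05. The script was tested on simulated data. Genes were named by a rule: the 8 markers, for each the 3 genes most correlated with it, and listed genes with calls. The members and lists were chosen with earlier results of these data known. Alternatives were no averaging, a replicate block, a present call, quantile normalization, no trend, a floor and leaving out each array. The pairing check gave correlations of -0.103 to 0.133 between same-numbered arrays, and the main fit paired no samples by number. Low correlations cannot show whether same-numbered arrays were prepared together. The number of arrays limits the precision.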

Additional observations from a re-analysis of the deposited data

Results flagged for a closer look

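Ncr1 moved in opposite directions in the organs. GFP-RFP+ minus GFP+RFP+ was 0.17 on the log2 scale in spleen, where both GFP-RFP+ arrays lay above both GFP+RFP+ arrays, and -0.92 in lymph node, where both lay below. Likewise spleen minus lymph node was 0.45 in GFP-RFP+ cells and -0.63 in GFP+RFP+ cells, with no overlap of arrays in either. The difference was not tested, and Ncr1 had a present call on only 3 of 8 arrays.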

How the results depend on the processing

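Between organs 731 probe sets passed. The count was 0 without the intensity trend (3620 at an unadjusted p under 0.05), 288 with a floor at the 20th percentile of each array, and 379 to 940 when 1 array was left out, with 446 without GFP-RFP+ lymph node replicate 1, 410 without GFP-RFP+ spleen replicate 1 and 379 without GFP+RFP+ spleen replicate 2. Between populations 6638 passed, 0 without the trend (7282 unadjusted), and 4208 to 7035 with 1 array left out, the lowest without GFP-RFP+ spleen replicate 1. In limma without averaging the duplicates, which measures the spread between hybridisations, the counts were 1093 and 7985. With a replicate block they were 1050 and 7851, and of the 13 marker probe sets only Lyz2 between populations changed its call. The cause of the zero counts without the trend was not tested.

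Signs turned only for differences that had not passed. With quantile normalization the organ difference of Cd8a was -0.012 on 1425335_at and -0.036 on 1444078_at, and with the floor the population difference of Itgam was 0.12. With 1 array left out, the organ difference ran from -0.16 to 0.21 on 1425335_at, -0.14 to 0.18 on 1444078_at, -0.22 to 0.43 on 1440811_x_at and -0.218 to 0.033 for Ncr1. The population difference ran from -0.058 to 0.41 for Ms4a1 (1423226_at), -0.31 to 0.12 for Itgam, -0.289 to 0.075 on 1425335_at and -0.127 to 0.067 for Cd8b1.

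The median level of the markers was 5.82 on the log2 scale, and 4.97 when all probe sets of a gene were averaged. The signals of the dChip table gave 5.82. The number of marker probe sets present on all arrays stayed at 6 of 13 with marginal calls counted. The number of markers whose population difference had 1 sign in both organs was 3 of 8, and 2 to 4 with 1 array left out. Dim signals of Itgam, Ncr1 and, in lymph node, Alas2 lie near background and limit their folds, as do those of S100a9, Cr2 and C1qa in lymph node. The population call of Cd8a depends on the probe set, with -0.107 on 1425335_at and -2.333 on 1444078_at, an alternative chosen after seeing the data.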

Other observations

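The 10 genes with the largest organ difference, named after their values were seen, were C1qa, Jchain, Slc40a1, Ighg, Alas2, S100a9, C1qc, Iglv1, Slc4a1 and Csf1r. C1qa, a complement chain made by macrophages, averaged 445 ± 136 in GFP-RFP+ spleen and 413 ± 79 in GFP+RFP+ spleen, against 2.35 ± 0.11 in GFP-RFP+ lymph node and 3.54 ± 1.10 in GFP+RFP+ lymph node (SD of duplicates). All 4 lymph node signals of C1qa lay below the 20th percentile of their arrays, and with that floor its log2 difference was 6.22, against 7.21 without it. Slc40a1, the iron exporter of macrophages that recycle red cells, had a log2 difference of 6.56.

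Globin probe sets that carry several identifiers were outside the rule. Of 3 Hba-a1 probe sets and 1 Hbb-b1 probe set, the organ log2 differences were 6.79, 7.07 and 10.66 for Hba-a1 and 7.49 for Hbb-b1. The Hba-a1 probe set with the largest had 5791.87 and 5087.53 in GFP-RFP+ spleen, 3382.02 and 4137.24 in GFP+RFP+ spleen, 7.14 and 1.93 in GFP-RFP+ lymph node, and 2.73 and 1.59 in GFP+RFP+ lymph node. Its lymph node signals other than 7.14 lay below the 20th percentile of their arrays (5.61 to 5.7). Its measured fold thus depends on values near background. The Hba-a1 probe set with a single identifier had no present call on any array and pool means of 7.42 in GFP-RFP+ spleen and 4.2 in GFP+RFP+ spleen, against 11.4 in GFP-RFP+ lymph node and 7.33 in GFP+RFP+ lymph node, and only this probe set counted in the erythroid list. An Ighg probe set had 88.81 and 631.8 on the duplicates of GFP-RFP+ spleen, and what separates them was not tested.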
